A study of Rattus norvegicus with 24 samples.

Results

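Cyclic nucleotide phosphodiesterases are the enzymes that break down cAMP and cGMP, and 10 of their genes were followed in rat myocardium: Pde1c, Pde2a, Pde3a, Pde3b, Pde4a, Pde4b, Pde4d, Pde5a, Pde7a and Pde8a. They were chosen by gene symbol from the 10797 genes that appear in at least 1 of 4 expression tables. Mitral regurgitation (MR), the leak of blood from the left ventricle back into the left atrium, was made in Sprague-Dawley rats by opening the chest on the left and puncturing a leaflet of the mitral valve. Sham rats were operated on without the puncture. Whole myocardial tissue was sequenced in 24 libraries. Sham tissue, in 5 libraries, was taken 2 weeks after surgery, and MR tissue gave 4 libraries for 2 weeks and 5 for each later time, which were 10, 20 and 40 weeks. No genotype, drug or other agent is named for any group, and the labels give no age, sex, chamber or batch. Whether libraries are from different rats is not stated, so a p-value measures the spread between these libraries. Every Sham library is from 2 weeks, so at 10, 20 and 40 weeks the duration of MR, the age of the rat and the handling of the samples cannot be told apart.

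The messengers cAMP and cGMP are made by adenylyl and guanylyl cyclases and act through protein kinases, exchange factors and ion channels. Phosphodiesterases end the signal, and because each enzyme is held at its own place in the cell they also shape where in the cardiomyocyte the messenger can act. Pde3 and Pde4 enzymes carry much of the cAMP breakdown in rodent cardiomyocytes, where cAMP formed after beta-adrenergic stimulation speeds and strengthens the beat. Pde2 enzymes are activated by cGMP and break down both messengers, Pde5 enzymes prefer cGMP, Pde1 enzymes need calcium and calmodulin, and Pde7 and Pde8 enzymes have a high affinity for cAMP.

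Of the 10 genes, 9 were listed in every table, and Pde1c was listed in the 40-week table alone. Each listed gene had reads in all libraries of its table. The tables hold normalised read counts, in which each library was divided by 1 factor. The genes listed received 7688789 to 12097804 reads per library, and 1 read was worth 0.0393 to 0.0590 normalised reads. Changes were tested with limma on log2(normalised count + 1), over all genes with a mean of at least 1, with Benjamini-Hochberg adjustment (called adjusted p below) and a threshold of 0.05. On this scale the change of a low gene is understated. Of the 10 genes, 9, 9, 8 and 9 passed the filter on low values at 2, 10, 20 and 40 weeks. Levels of single libraries are given on a scale common to the 24 libraries, whereas the group means beside a test are those of the table in which it was run. No transcript length is given, so levels are compared between libraries and not between genes.

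The 40-week libraries stood apart from the rest in the whole transcriptome. On the first principal component, which held 48.19% of the variance, they lay at 28.4 to 57.3, and every other library lay at 21.8 or below. At 40 weeks 47.3% of the genes tested differed from Sham, against 0% at 2 weeks, 0.168% at 10 weeks and 0.0698% at 20 weeks. In the 40-week table the median of all genes was -0.15 (log2), so changes are also given relative to it. A median-ratio scaling moved that split from 1648 higher and 3124 lower to 2391 higher and 2196 lower. Defining cardiomyocyte markers such as Myh6 and Tnnt2 were listed in each table.

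At 40 weeks the phosphodiesterases moved in both directions. Of the 9 genes tested, 5 were higher than in Sham (Pde3a, Pde4d, Pde4b, Pde4a and Pde3b) and 2 were lower (Pde7a and Pde2a), beside 16.3% of all genes higher and 30.9% lower. Their median change was 0.44, and that of all genes tested was -0.15. In 4 of the 9 the Sham and 40-week libraries did not overlap, beside 29.2% of all genes. Because whole tissue was sequenced, fewer cells of a type and less RNA per cell cannot be told apart in any of these changes.

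**Figure D1:**
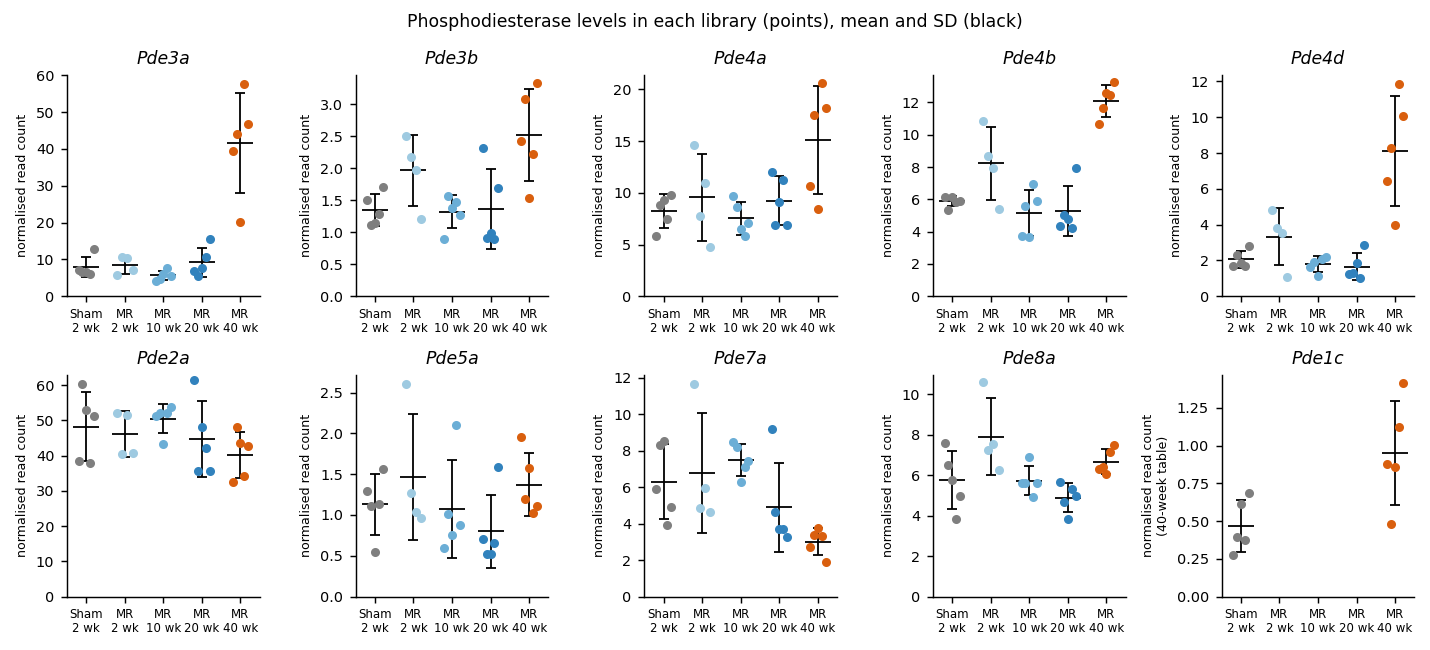
Level of each of the 10 phosphodiesterases in every library (normalised read count, linear axis from 0), with Sham in grey, MR at 2, 10 and 20 weeks in blues and MR at 40 weeks in orange. Points are libraries, the wide bar is the group mean and the whiskers are 1 SD. Pde3a, Pde4b and Pde4d at 40 weeks lie above each Sham library, and Pde7a lies below each of them; Pde1c has values in the 40-week table alone.

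Pde3a showed the largest change of the 9. It encodes a phosphodiesterase inhibited by cGMP that hydrolyses cAMP near the sarcoplasmic reticulum, and it is the target of inotropic drugs such as milrinone. The gene lies at chr4:175431904-175700239 on the plus strand (rn6, the build of the tables). The 5 Sham libraries had levels of 7.04, 6.70, 6.63, 6.12 and 12.7 normalised reads, and the 5 libraries at 40 weeks had 39.5, 44.1, 20.2, 57.5 and 46.8. The lowest 40-week library was thus above the highest Sham library. In the 40-week table the means were 36.9 ± 11.8 (SD, n = 5) and 7.94 ± 2.74 (SD, n = 5), a 4.65-fold difference. The log2 change was 2.06 ± 0.24 (SE) with an adjusted p of 0.00013 (limma), and relative to the median of all genes it was 2.21. The groups between them in time did not share this level: Pde3a lay at 5.74, 10.6, 10.3 and 6.998 at 2 weeks, at 4.24, 4.76, 6.12, 7.64 and 5.54 at 10 weeks, and at 6.92, 5.39, 7.79, 10.6 and 15.5 at 20 weeks. The highest library before 40 weeks, replicate 5 at 20 weeks, was still below the lowest at 40 weeks.

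Pde3b, the close relative of Pde3a that is best known from fat cells and insulin signalling, was a low gene in this tissue. Its levels were 1.50, 1.11, 1.14, 1.28 and 1.71 in Sham and 2.43, 3.09, 1.54, 2.22 and 3.34 at 40 weeks. At 40 weeks 4 of 5 libraries lay above each Sham library in the table. The means were 2.23 ± 0.545 and 1.37 ± 0.293 (SD, n = 5 each), and the log2 change was 0.44 ± 0.16 (SE; adjusted p 0.0368, limma). The call rested on 21 to 66 reads per library and was lost when any 1 of 7 libraries was left out (Sham replicate 2, 3 or 4, or 40-week replicate 1, 2, 4 or 5). Over all left-out libraries, those that kept the call included, the change was 0.38 to 0.53. The ratio of Pde3a to Pde3b reads was 4.69 to 7.43 in the Sham libraries and 13.2 to 25.9 at 40 weeks. At 2, 10 and 20 weeks it was 2.29 to 5.79, 3.03 to 5.20 and 2.98 to 11.8.

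The Pde4 genes encode enzymes specific for cAMP that bind anchoring proteins, receptors and arrestins. Pde4d, whose protein is found with the ryanodine receptor and the beta-adrenergic receptors, had levels of 1.71, 2.31, 1.85, 1.68 and 2.79 in Sham. At 40 weeks it had 6.44, 8.28, 3.95, 11.8 and 10.1, each above the highest Sham library. The means were 7.18 ± 2.60 and 2.09 ± 0.451 (SD, n = 5 each), a 3.44-fold difference. The log2 change was 1.35 ± 0.21 (SE) with an adjusted p of 0.00034 (limma), or 1.50 relative to the median of all genes. At 2 weeks Pde4d was at 4.83, 3.81, 3.53 and 1.08, so 3 of the 4 libraries lay above the Sham libraries and 1 lay below them. It was at 1.61, 1.94, 1.13, 2.11 and 2.19 at 10 weeks and at 1.23, 1.29, 1.83, 0.992 and 2.86 at 20 weeks. The gene lies at chr2:40219999-41464112 on the plus strand and is the longest of the 10, with a span of 1244 kb.

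Pde4b, which is also bound to calcium channel complexes in cardiomyocytes, varied little within the Sham and the 40-week groups. The Sham libraries had 6.16, 5.37, 6.14, 5.82 and 5.91 normalised reads, and the 40-week libraries had 10.6, 11.6, 12.6, 12.5 and 13.2. In the table the means were 10.8 ± 0.757 and 5.97 ± 0.492 (SD, n = 5 each), a 1.81-fold difference without overlap. The log2 change was 0.76 ± 0.11 (SE; adjusted p 0.000269, limma), or 0.91 relative to the median of all genes. Earlier MR libraries lay on both sides of Sham. At 2 weeks they were at 10.9, 8.66, 7.95 and 5.41, with 3 of 4 above each Sham library. The 10-week libraries had 3.72, 5.59, 3.64, 6.95 and 5.89, and the 20-week libraries 4.36, 5.01, 4.81, 4.20 and 7.97. The gene is at chr5:121759236-122136815 on the plus strand.

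Pde4a had levels of 5.85, 8.83, 9.29, 7.45 and 9.82 in Sham and 10.6, 17.5, 8.48, 20.6 and 18.2 at 40 weeks. At 40 weeks 3 of 5 libraries were above the Sham libraries in the table and 2 lay among them. The means were 13.4 ± 4.38 and 8.31 ± 1.34 (SD, n = 5 each), and the log2 change was 0.58 ± 0.20 (SE; adjusted p 0.0286, limma). The call was lost without Sham replicate 1 or 40-week replicate 2, 4 or 5, with changes of 0.45 to 0.73 over all left-out libraries. Pde4d read counts were 0.277 to 0.471 times those of Pde4b in Sham and 0.315 to 0.950 times at 40 weeks, so the ratio overlapped between the groups.

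The promoters of the 3 genes that rose without overlap are shown because these genes moved together. RefSeq (GRCr8) gives a window of 250 bases before to 50 bases after an annotated start for 8 of the 10 genes, 17 windows in all. Pde3a has 1 window, Pde4b has 2 and Pde4d has 5. The Pde3a window and, for Pde4b and Pde4d, the window with the most matches to the motifs below follow, 5′ to 3′; they were chosen after the matches were seen. Capitals mark the GC box GGGCGG and the letters TGACG, the core of the cAMP response element TGACGTCA, on either strand.
Pde3a, chr4:175904026-175904325, plus strand: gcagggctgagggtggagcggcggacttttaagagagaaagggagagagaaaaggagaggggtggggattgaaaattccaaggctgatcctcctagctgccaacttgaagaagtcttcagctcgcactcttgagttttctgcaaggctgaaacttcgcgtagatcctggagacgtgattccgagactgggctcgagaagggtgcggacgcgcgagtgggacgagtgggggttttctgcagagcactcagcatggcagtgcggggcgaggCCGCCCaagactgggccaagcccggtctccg
Pde4b, chr5:122028706-122029005, plus strand: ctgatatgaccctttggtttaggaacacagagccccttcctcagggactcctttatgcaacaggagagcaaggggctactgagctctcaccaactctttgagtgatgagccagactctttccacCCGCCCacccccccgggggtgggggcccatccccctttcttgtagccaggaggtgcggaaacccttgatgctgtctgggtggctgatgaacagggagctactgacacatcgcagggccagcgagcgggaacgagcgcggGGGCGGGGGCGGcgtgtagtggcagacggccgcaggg
Pde4d, chr2:42592499-42592798, plus strand: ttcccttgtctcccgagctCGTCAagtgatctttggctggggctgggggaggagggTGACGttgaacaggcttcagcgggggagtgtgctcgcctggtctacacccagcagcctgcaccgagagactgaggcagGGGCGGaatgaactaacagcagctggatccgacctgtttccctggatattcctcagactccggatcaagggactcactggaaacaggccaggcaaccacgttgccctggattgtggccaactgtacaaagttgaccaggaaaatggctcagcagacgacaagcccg
Counted from 1 at the 5′ end, the Pde3a window holds a GC box at bases 270 to 275 on the minus strand. The Pde4b window holds GC boxes at bases 125 to 130 on the minus strand and at 264 to 269 and 270 to 275 on the plus strand. The Pde4d window holds TGACG at bases 20 to 24 on the minus strand and 57 to 61 on the plus strand, and a GC box at 135 to 140. Of the other 4 Pde4d windows 3 hold no TGACG and 3 no GC box, and the other Pde4b window holds 1 GC box. Over the 17 windows, 0 held the whole TGACGTCA, 5 held TGACG and 11 held GGGCGG. Among 33469 RefSeq windows of this length the shares were 1.83%, 21.2% and 33.1%; a window that holds TGACGTCA also counts under TGACG. A match is a stretch of letters, and gene-level counts do not show which start was used.

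Pde7a, a cAMP-specific enzyme also abundant in lymphocytes, moved the opposite way. Its levels were 5.90, 8.30, 8.53, 3.90 and 4.94 in Sham and 2.72, 3.36, 3.78, 3.34 and 1.87 at 40 weeks, where each library was below the lowest Sham library. The means were 2.71 ± 0.748 and 6.33 ± 1.77 (SD, n = 5 each), so Sham was 2.34-fold higher. The log2 change was -0.97 ± 0.19 (SE; adjusted p 0.00137, limma), or -0.82 relative to the median of all genes. Pde7a lay at 11.7, 4.85, 5.98 and 4.62 at 2 weeks and at 8.49, 8.22, 6.28, 7.10 and 7.45 at 10 weeks. At 20 weeks it was at 9.19, 4.63, 3.71, 3.73 and 3.27, so 3 of the 5 libraries were already below the Sham libraries. The summed level of 5 lymphocyte markers overlapped between Sham (17.8 to 32.6) and 40 weeks (18.6 to 24.1). Of the 5, 1 was lower by the test, beside 30.9% of all genes. Cd3e, Cd3d, Cd79a, Cd79b and Ms4a1 were not listed. The part of lymphocytes in the change of Pde7a was not tested.

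Pde2a, the enzyme through which cGMP lowers cAMP, had levels of 38.4, 60.4, 53.0, 37.9 and 51.3 in Sham and 32.5, 48.0, 43.6, 34.4 and 42.8 at 40 weeks. The ranges overlapped. In the 40-week table the means were 35.9 ± 5.61 and 48.5 ± 7.84 (SD, n = 5 each), a log2 change of -0.43 ± 0.14 (SE; adjusted p 0.0258, limma). Relative to the median of all genes it was -0.28. The call was lost under median-ratio scaling, edgeR, DESeq2 and a fit of all 24 libraries. It was also lost without Sham replicate 2 or 5 or 40-week replicate 1 or 4, with changes of -0.49 to -0.35 over the left-out libraries and an adjusted p of up to 0.196 over all alternatives. At 2, 10 and 20 weeks it did not pass, with levels of 40.4 to 52.1, 43.3 to 53.7 and 35.6 to 61.5 normalised reads.

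Pde5a, the cGMP-specific target of sildenafil, was at the edge of detection, with 10 to 54 reads per library. Its levels ran from 0.543 to 1.56 in Sham and from 1.02 to 1.96 at 40 weeks, and its log2 change of 0.06 ± 0.18 (SE; adjusted p 0.812, limma) did not pass. At 20 weeks it fell below the filter, with levels of 0.523 to 1.58. Without the filter its change there was -0.26 ± 0.20 (SE; adjusted p 0.725, limma). Pde8a, a cAMP-specific enzyme that is not blocked by the general inhibitor IBMX, ran from 3.85 to 7.61 in Sham and from 6.06 to 7.48 at 40 weeks, with a log2 change of 0.05 ± 0.15 (SE; adjusted p 0.8, limma).

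Pde1c, which breaks down both messengers when calcium and calmodulin are bound, had 5 to 14 reads in the Sham libraries and 10 to 34 at 40 weeks. In the 40-week table its values were 0.276, 0.393, 0.612, 0.373 and 0.688 in Sham and 0.881, 0.478, 0.862, 1.12 and 1.41 at 40 weeks. At 40 weeks 4 of 5 libraries lay above the Sham libraries. The means were 0.951 ± 0.346 and 0.468 ± 0.174 (SD, n = 5 each), a 2.03-fold difference. The gene was under the filter, and without the filter its log2 change was 0.40 ± 0.17 (SE) with an adjusted p of 0.0679 (limma). Each gene of that table had at least 31 reads in its best covered library. Pde1c reached this through a 40-week library with 34 reads, and no Sham library had more than 14. Its listing thus rested on the 40-week group, which favours a higher level there, and the difference is given as a description.

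**Figure D2:**
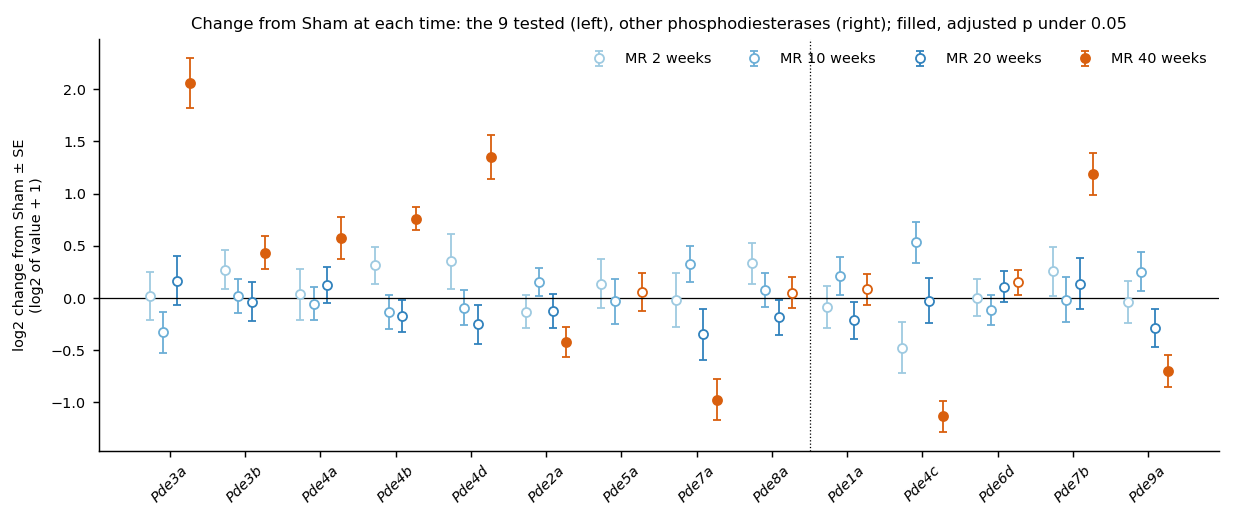
Log2 change from Sham on log2(normalised count + 1), with its SE, for 9 of the phosphodiesterases studied and 5 other genes with a Pde symbol, at MR 2, 10, 20 and 40 weeks. Filled points passed an adjusted p of 0.05; all of them are at 40 weeks, with Pde3a at 2.06 and Pde4c at -1.14 as the extremes. Pde5a has no point at 20 weeks, where it was under the filter.

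At 2, 10 and 20 weeks 0 of the tested phosphodiesterases passed against Sham by limma, edgeR or DESeq2, and 0 had an unadjusted p under 0.05 in limma. At 2 weeks 0 of all 10173 genes passed by limma or edgeR, 556 had an unadjusted p under 0.05, and DESeq2 called 57. At 10 and 20 weeks 1212 of 10096 and 951 of 10025 genes had an unadjusted p under 0.05 in limma. The changes at 2 weeks ran from -0.13 (Pde2a) to 0.35 (Pde4d), with a median of 0.14 and 7 of 9 above 0; all genes had a median of -0.07. At 10 weeks they ran from -0.33 (Pde3a) to 0.32 (Pde7a), with a median of -0.03 beside 0.06 for all genes. At 20 weeks they ran from -0.35 (Pde7a) to 0.17 (Pde3a), with a median of -0.15 beside -0.00 for all genes. In 0 of the phosphodiesterases did the MR and Sham libraries separate at these times, beside 2.16%, 2.45% and 1.8% of all genes. The adjusted p was 0.84 or above at 2 weeks, 0.48 or above at 10 weeks and 0.72 or above at 20 weeks.

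Within the MR groups single libraries set much of the spread. MR 2-week replicate 1 was the highest of its group for 8 of 9 genes, with Pde7a at 11.7, Pde4a at 14.7 and Pde5a at 2.61, and replicate 4 was the lowest for 7 of 9. At 20 weeks replicates 1 and 5 were the highest for 5 and 4 of the 9 genes. At 40 weeks replicate 3 was the lowest for 5 of the 9, with Pde3a at 20.2 and Pde4d at 3.95. Without 40-week replicate 4, 4 of the 9 genes passed against Sham in place of 7: Pde3a, Pde4b, Pde4d and Pde7a.

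The time at which the change appeared was tested by setting the MR groups against each other, in 1 fit of the 24 libraries on the common scale. From 20 to 40 weeks 6 of 9 phosphodiesterases rose and 0 fell by limma, beside 38.8% of all genes (21.3% higher, 17.6% lower). Pde3a rose by 2.06 ± 0.26 (SE; adjusted p 6.31e-06), Pde4d by 1.75 ± 0.25 (1.83e-05) and Pde4b by 1.09 ± 0.17 (3.67e-05), without overlap between the groups. Pde3b rose by 0.59 ± 0.18 (adjusted p 0.0104), Pde4a by 0.62 ± 0.24 (0.0448) and Pde8a by 0.39 ± 0.15 (0.0388, no overlap). The calls of Pde4a and Pde8a were lost on the deposited scale. Both were also lost without any 1 of 6 libraries, which were 40-week replicates 2, 4 and 5 and 20-week replicates 2 and 3 for each gene, with 20-week replicate 5 for Pde4a and 40-week replicate 1 for Pde8a. Over all left-out libraries, those that kept the call included, the changes were 0.49 to 0.79 for Pde4a and 0.31 to 0.43 for Pde8a. Pde8a had means of 5.74 ± 1.44 in Sham, 4.89 ± 0.713 at 20 weeks and 6.67 ± 0.602 at 40 weeks (SD, n = 5 each, common scale), and against Sham it did not pass. Pde7a did not pass here (-0.50 ± 0.24, adjusted p 0.0944), but passed by DESeq2 (-0.70, adjusted p 0.0458), with library weights (-0.41, adjusted p 0.0497) and on the deposited scale (-0.61, adjusted p 0.0367). Pde5a (0.41 ± 0.20, adjusted p 0.109) passed with library weights (0.48, adjusted p 0.0127) and without 20-week replicate 5 (0.55, adjusted p 0.0316). With library weights 8 of the 9 passed.

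From 2 to 40 weeks of MR, 4 of 9 rose and 1 fell by limma, beside 45.7% of all genes (24.3% higher, 21.3% lower). Pde3a rose by 2.14 ± 0.27 (SE; adjusted p 1.22e-05), Pde4d by 1.10 ± 0.27 (0.00204), Pde4a by 0.63 ± 0.26 (0.0455) and Pde4b by 0.54 ± 0.18 (0.0166). Pde7a fell by 0.89 ± 0.25 (adjusted p 0.00585). The calls of Pde4a and Pde4b were lost on the deposited scale and without 2-week replicate 4, and Pde4a also without 2-week replicate 2 or 40-week replicate 2, 4 or 5, with edgeR, and in a fit of the compared groups alone. Over all left-out libraries the change was 0.38 to 0.86 for Pde4a and 0.38 to 0.67 for Pde4b. Pde3b, which did not pass (0.24, adjusted p 0.295), passed with library weights (0.43, adjusted p 0.0358). Between 2 and 10 weeks and between 10 and 20 weeks 0 of 9 passed by limma or edgeR, beside 1.37% and 0.01% of all genes. In each, 2 of 9 had an unadjusted p under 0.05 in limma, beside 1519 and 1516 of 9984 genes. The nearest were Pde4b from 2 to 10 weeks (-0.58 ± 0.18, adjusted p 0.101), which passed by DESeq2 (-0.67, adjusted p 0.0461) and without 2-week replicate 4 (-0.74, adjusted p 0.0463), and Pde7a from 10 to 20 weeks (-0.60 ± 0.24, adjusted p 0.268), which passed with library weights (-0.75, adjusted p 0.0255). These comparisons share libraries with each other and, at 40 weeks, with the comparison to Sham.

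The make-up of the phosphodiesterase reads was also followed. Over the 14 genes with a Pde symbol listed in every table, Pde2a took 43.5% ± 3.63 (SD, n = 5) of the reads in Sham and 26.6% ± 5.72 at 40 weeks. Pde6d, which does not encode such an enzyme, is among the 14, with 6.27% in Sham and 5.70% at 40 weeks. Pde3a took 7.11% ± 2.06 in Sham and 26.5% ± 6.27 at 40 weeks. In Sham the Pde3a share ran from 5.39% to 10.5%, and at 40 weeks from 16.3% to 33.2%; at 2, 10 and 20 weeks the highest were 9.99%, 6.83% and 15.3%. Pde4d went from 1.87% ± 0.273 to 5.14% ± 1.38, and Pde7a from 5.68% ± 1.42 to 2.02% ± 0.685. Pde4a, Pde4b and Pde8a held 7.48%, 5.44% and 5.26% in Sham and 9.56%, 7.99% and 4.38% at 40 weeks. The summed level of the 14 genes was 110 ± 14.9 in Sham and 154 ± 22.4 at 40 weeks (SD, n = 5 each), from 90.0 to 124 and from 124 to 173. The ratio of Pde3a to Pde2a reads was 0.111 to 0.248 in Sham, at most 0.433 at 2 to 20 weeks and 0.464 to 1.67 at 40 weeks. These shares are descriptions without a test and are not corrected for transcript length.

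**Figure D3:**
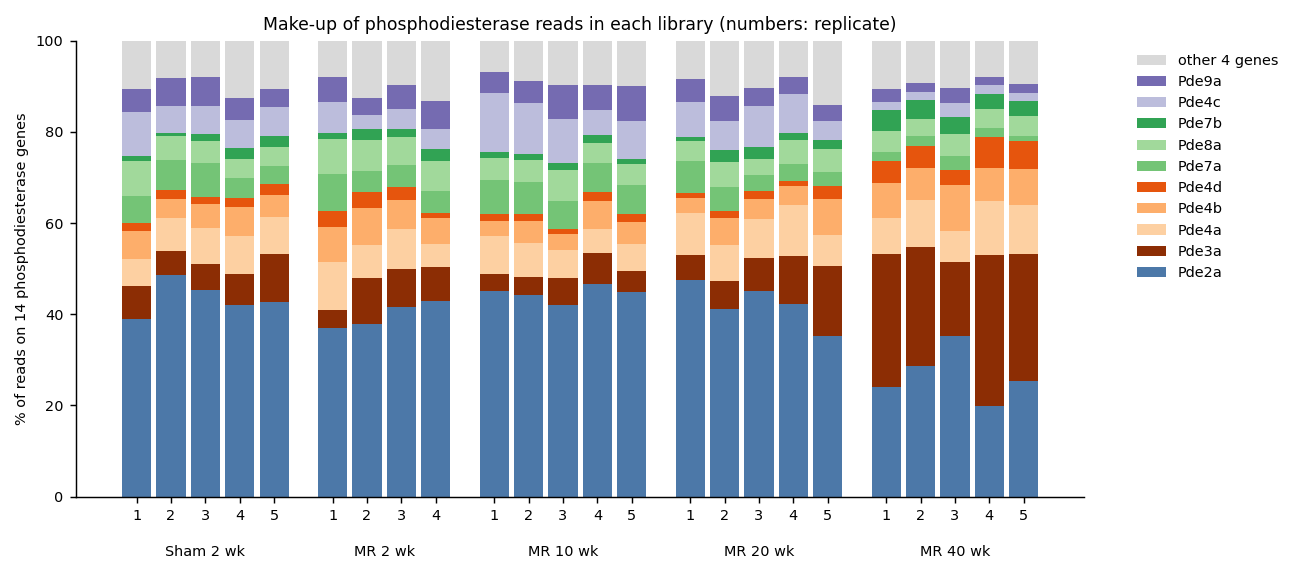
Share of the reads on 14 genes with a Pde symbol (%, axis from 0 to 100) taken by each gene in each of the 24 libraries, grouped by time. Numbers are replicates. Pde2a (blue) holds 39.0% to 48.6% of the reads in Sham and 19.8% to 35.1% at 40 weeks, and Pde3a (dark red) widens to 16.3% to 33.2%.

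Other phosphodiesterases also moved in both directions at 40 weeks. Of 14 other genes with a Pde symbol, not all of which encode such an enzyme (Pde6d does not), 5 could be tested. Among them 1 rose and 2 fell, beside 16.3% of all genes higher and 30.9% lower. Pde7b, a paralogue of Pde7a, rose while Pde7a fell: 5.13 ± 0.719 against 1.78 ± 0.894 (SD, n = 5 each), a log2 change of 1.19 ± 0.20 (SE; adjusted p 0.00053, limma) without overlap. Pde4c, the member of the Pde4 family outside the 10 genes, fell while its 3 relatives rose: 2.83 ± 0.456 against 7.48 ± 1.58, a log2 change of -1.14 ± 0.15 (SE; adjusted p 0.000177, limma) without overlap. Pde9a, a cGMP-specific enzyme, fell by 0.70 ± 0.15 (SE; adjusted p 0.00263, limma), from 5.87 ± 1.40 to 3.19 ± 0.460, also without overlap. Pde1a (0.08, adjusted p 0.669) and Pde6d (0.15, adjusted p 0.328) did not pass. From 20 to 40 weeks Pde7b (1.20) and Pde4c (-0.98) passed again, and from 2 to 40 weeks Pde7b (1.03) and Pde9a (-0.59). At 10 weeks Pde4c was at 11.8 ± 3.57 against 7.62 ± 1.61 in Sham, which did not pass (adjusted p 0.31, limma).

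The genes that make cAMP and cGMP were read from a list of cyclases and their regulators. At 40 weeks 3 of 16 tested rose and 6 fell, beside 16.3% of all genes higher and 30.9% lower. Adcy5 and Adcy6 are the main adenylyl cyclases of cardiomyocytes: Adcy5 rose from 78.8 ± 14.98 to 166 ± 31.7 (log2 change 1.07, adjusted p 0.000402, limma) and Adcy6 fell from 174 ± 41.3 to 117 ± 15.1 (-0.54, 0.0147). Of the 6 that fell, 3 (Adcy6, Npr2 and Gnas) lost their call under median-ratio scaling and in a fit of all 24 libraries. Adcy1, counted among the 3 that rose, changed by 2.54. It was at 8.85 ± 5.42 at 40 weeks and at 0.495 ± 0.212 in Sham (SD, n = 5 each). The Sham mean of Adcy1 was under the filter of 1. It was thus tested only through its 40-week level, which favours a rise, and its change is given as a description. Npr3, the natriuretic peptide clearance receptor, rose by 1.93. On the cGMP side Npr1, the receptor cyclase for natriuretic peptides, fell by 0.77 and Nos3, the endothelial nitric oxide synthase, by 0.79. Of 10 endothelial markers 1 was higher and 5 were lower, beside the same 16.3% and 30.9% of all genes. Their summed levels overlapped, at 953 to 1208 in Sham and 785 to 1080 at 40 weeks. The part of endothelial cells in the change of Nos3 was not tested.

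Of the receptors that act through cAMP and their partners, 4 of 13 rose and 2 fell at 40 weeks. Ramp2 fell from 33.3 ± 6.30 to 15.3 ± 3.09 (-1.08, adjusted p 0.000275, limma) without overlap, and kept its call under each alternative run. Adora2a fell by 0.61, with overlap, and lost its call under median-ratio scaling, edgeR and a fit of all 24 libraries. Ptger4 and Calcrl rose by 0.67 and 0.83, with overlapping groups. Adrb1, the main beta-adrenergic receptor of the heart, rose from 2.00 ± 1.17 to 5.91 ± 1.91 (1.24, adjusted p 0.00162, limma). Chrm2, the muscarinic receptor that inhibits adenylyl cyclase, rose from 1.82 ± 0.784 to 12.1 ± 5.05 (2.17, adjusted p 0.000169). Among the effectors of the messengers 8 of 14 rose and 2 fell, with a median of 0.83 beside -0.15 for all genes. For the receptors and the effectors alike, the shares of all genes were 16.3% higher and 30.9% lower. Prkar1a, a regulatory subunit of protein kinase A, rose by 0.97 and Pkia, an inhibitor of its catalytic subunit, by 2.92. Other genes of this kinase moved in both directions. The catalytic subunit Prkacb rose by 1.26 and the regulatory subunit Prkar2a by 2.15, and the inhibitor Pkig fell by 0.64. Prkacb and Prkg1, both among the 8 that rose, were tested under 7 alternatives besides left-out libraries, and Prkar1a under 9. The pacemaker channels Hcn4 and Hcn2, which bind cAMP, rose by 2.93 and 1.69. Rapgef3, the exchange factor Epac1, fell by 0.85.

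Proteins that place phosphodiesterases in the cell were also read. Of 20 anchoring proteins and partners tested, 7 rose and 6 fell at 40 weeks, beside 16.3% of all genes higher and 30.9% lower. The shares of all genes are the same for the targets and exporters below. Akap6 (mAKAP), which holds Pde4d and protein kinase A at the nuclear envelope, rose from 21.4 ± 7.58 to 93.1 ± 31.02 (2.07, adjusted p 0.000182, limma). Pde4dip, myomegalin, which binds Pde4d, rose from 196 ± 52.7 to 502 ± 114 (1.36, adjusted p 0.000259), and Akap1, the mitochondrial anchor, by 1.55. Rack1, a partner of a Pde4d isoform, fell by 0.54, and Akap8 and Akap8l fell by 0.74 and 0.75. Of 16 protein kinase A targets of the cardiomyocyte, 4 rose and 2 fell: Ryr2, the calcium release channel, rose by 1.12, Atp2a2, the calcium pump, by 1.01, and Tnni3, cardiac troponin I, fell by 1.35. The call of Atp2a2 was lost without Sham replicate 2 (log2 change 0.78 at the lowest over left-out libraries). Of 2 exporters of cyclic nucleotides Abcc4 rose by 0.55 and Abcc5 fell by 0.74; the latter call was lost in a fit of all 24 libraries.

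The last list read held transcripts known to respond to cAMP. It also held Crtc1, Crtc2 and Crtc3, which encode coactivators of that response and are not themselves such transcripts. Against Sham 3 of 13 rose at 40 weeks (Nr4a3, Ppargc1a and Sik1, by 1.30, 1.34 and 0.65) and Crtc2 fell by 0.81. Of all genes 16.3% were higher and 30.9% lower. From 20 to 40 weeks 7 of 13 rose and 1 fell, with a median of 1.23, beside 21.3% of all genes higher and 17.6% lower. Fos rose by 2.01 and Nr4a1 by 1.78, with overlapping groups. At 20 weeks the list lay below Sham, with a median of -0.50 and 1 of 13 genes above 0, though 0 passed and 7 had an unadjusted p under 0.05. Of all 10025 genes, 4949 lay above 0 there and 951 had such a p in limma. From 2 to 40 weeks 2 of 13 rose and 1 fell, with a median of 0.43, beside 24.3% of all genes higher and 21.3% lower. At 2, 10 and 20 weeks 0 of 95, 95 and 94 tested genes of the pathway lists passed against Sham by limma, edgeR or DESeq2, with 7, 21 and 13 at an unadjusted p under 0.05 in limma. Over all genes 556 of 10173, 1212 of 10096 and 951 of 10025 had such a p.

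**Figure D4:**
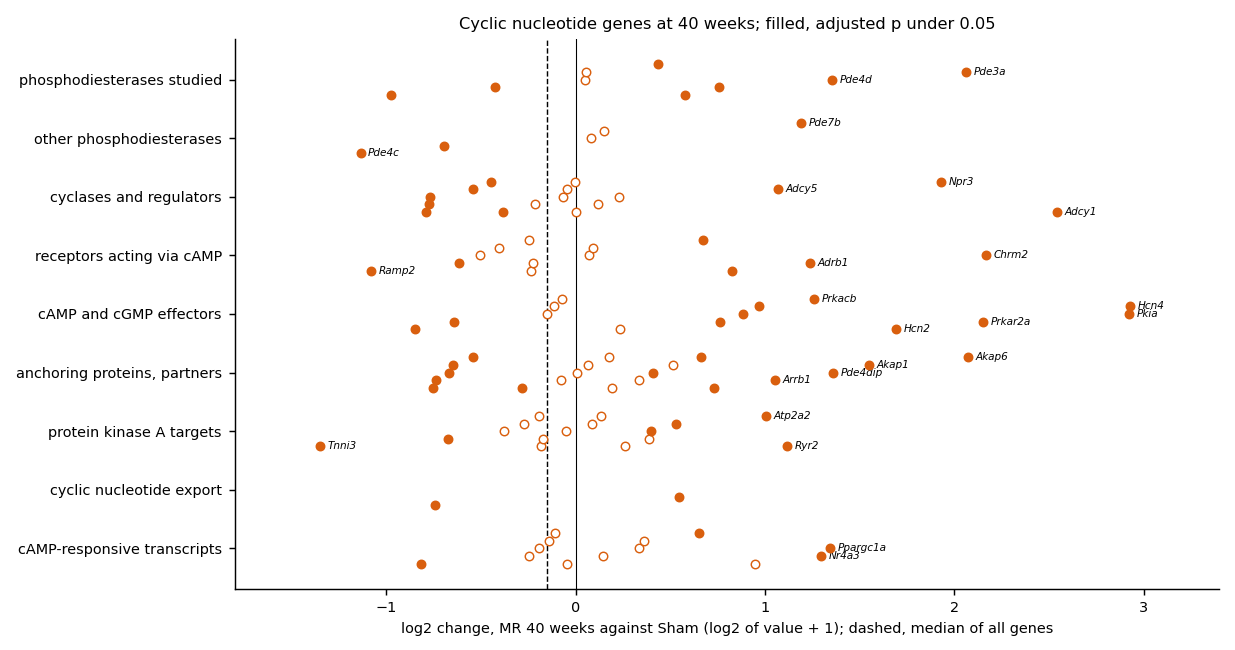
Log2 change at MR 40 weeks against Sham on log2(normalised count + 1) for each tested gene of the cyclic nucleotide lists, 1 row per list, with filled points for an adjusted p under 0.05. The solid line marks 0 and the dashed line the median of all genes, -0.15; genes that passed with a change beyond 1 in size are named, with Hcn4 at 2.93 and Tnni3 at -1.35 at the ends.

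Cell type markers and gene length were set beside the changes. The summed levels of cardiomyocyte markers (51685 to 62128 in Sham, 38482 to 56162 at 40 weeks), smooth muscle markers (239 to 606 and 306 to 463) and fibroblast markers (1071 to 3048 and 882 to 1248) overlapped. At 40 weeks 1 of 10 cardiomyocyte markers was higher and 5 were lower, with 3 and 3 for smooth muscle and 1 and 4 for fibroblasts. Beside these and the marker counts that follow, 16.3% of all genes were higher and 30.9% lower. Of 3 listed adipocyte markers 2 were lower, with sums of 199.7 to 323 against 355 to 592; Adipoq and Plin1 were not listed. Macrophage markers were lower in 4 of 9, and their sums overlapped. Dividing-cell markers were lower in 6 of 7, atrial markers were higher in 2 and lower in 1 of 6, and skeletal muscle markers were higher in 1 and lower in 2 of 4. Of 6 erythroid markers 0 passed, with a median change of -1.37. Their sums overlapped (1417 to 15267 in Sham, 669 to 7045 at 40 weeks). The part of cell make-up in the phosphodiesterase changes was not tested.

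Across all genes the change at 40 weeks moved with the span of the gene on the genome. Genes up to 5 kb had a median change of -0.43 and 6.28% were called higher, whereas genes over 200 kb had a median of 0.12 and 33.7% were called higher. At 2, 10 and 20 weeks the medians of the span classes lay between -0.13 and 0.08. Of the phosphodiesterases that rose, Pde4d spans 1244 kb, Pde4b 378 kb, Pde7b 310 kb, Pde3a 268 kb, Pde3b 185 kb and Pde4a 44.5 kb. Those that fell were Pde9a at 92.7 kb, Pde2a at 91.5 kb, Pde7a at 88.3 kb and Pde4c at 18.4 kb. Of the tested genes with a Pde symbol that did not pass, Pde1a spans 460 kb, Pde5a 140.96 kb, Pde8a 123 kb and Pde6d 44.9 kb. The changes of Pde3a, Pde4d, Pde4b and Pde7b were above the median of the genes over 200 kb, and that of Pde1a was 0.08. The part of span in these changes was not tested.

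**Figure D5:**
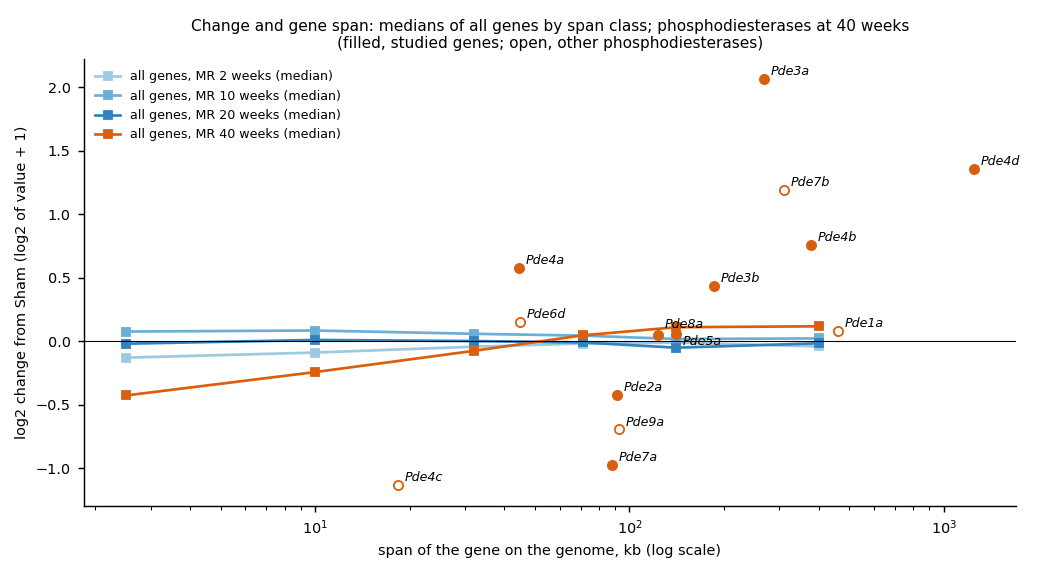
Log2 change from Sham against the span of the gene on the genome (kb, log axis). Lines join the medians of all genes by span class at each time. Orange circles are single genes with a Pde symbol at 40 weeks, filled for the genes studied and open for others. The 40-week line runs from -0.43 to 0.12, and Pde3a, Pde4d and Pde7b lie farthest above it.

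The genes whose levels followed each phosphodiesterase most closely over the 24 libraries were named by Pearson's r, as a description; the libraries fall into 5 groups of which the 40-week group stands apart. Pde3a was followed by Lman1, Crim1 and Slmap (r 0.97, 0.97 and 0.96). The r of deviations from group means was 0.79, 0.86 and 0.77 for these genes. Pde4d was followed by Ghr, Myo1c and Nebl (0.94, 0.93 and 0.93), and Pde4b by Myo1c, Irs2 and Zdhhc5 (0.91, 0.91 and 0.90). For deviations from group means r was 0.86, 0.73 and 0.73 for Pde4d and 0.59, 0.60 and 0.60 for Pde4b. Pde7a was followed by Sppl2b, Hnrnph1 and Cpsf7 (0.95, 0.95 and 0.94), with 0.89, 0.91 and 0.92 for deviations from group means. For Pde4a they were Ank3, Stau1 and Gata6 (0.87, 0.86 and 0.85), for Pde3b Zbtb7a, Thrap3 and Med1 (0.84, 0.82 and 0.82) and for Pde2a Zcchc8, Proser3 and Sh2d3c (0.83, 0.81 and 0.80). Their r of deviations was 0.81, 0.83 and 0.77 for Pde4a. It was 0.66, 0.68 and 0.65 for Pde3b and 0.84, 0.83 and 0.78 for Pde2a. Pde8a (Gbf1, Snx19 and Sec16a) reached 0.76 and Pde5a (Cttnbp2nl, Zbtb38 and Chd1) 0.66 at most. For deviations these were 0.80, 0.59 and 0.68 for Pde8a and 0.55, 0.55 and 0.52 for Pde5a. In the tables the rows of Echs1 and Sbk1 span many megabases and cover Pde2a, Pde3b and Pde8a, and the strand used in counting is not given in the sources used here.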

How the data were processed

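RNA from 24 rat myocardium libraries was sequenced on an Illumina platform, per the labels' protocols, and processed with Partek on the rat build rn6, per the submitters' processing notes. The aligner, annotation, counting rule, strand setting and scaling method remain not given in the sources used here. Values were deposited as signal: linear normalised gene counts in 4 tables, with 1 MR time and all 5 Sham libraries in each. Between 97.72% and 97.79% of values up to 1000 reads were within 0.1 read of a whole multiple of 1 factor per library, and reads were recovered with it. Depth was 7688789 to 12097804 reads per library. In each table the gene with fewest reads had 31 or 32 in its best covered library, so the lowest genes are not in view.

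Groups follow the labels; replicates are numbered in accession order. The main test was limma 3.58.1 (R 4.3.3, empirical Bayes with a mean trend, two-sided) on log2(value + 1), genes with a mean of at least 1, Benjamini-Hochberg over all genes, within a table against Sham, and for MR groups in 1 fit of 24 libraries after median-ratio scaling. Since the deposited signal is not raw counts, edgeR 4.0.16 and DESeq2 1.42.0 on recovered reads served as alternatives. Other alternatives were scaling, pseudocounts of 0.5 and 4, no filter or a mean of at least 10, library weights, the libraries in the fit and leaving out each library. The test was checked on simulated data. The 10 genes and the lists were chosen with earlier results of these data known. Named genes are the 10, list genes that passed (the 4 with the largest change per direction where more did, among those with a mean at or above the median) and the 3 most similar genes of each. A few others that passed, such as Prkacb and Prkar2a, are named beside these. Not every list gene that met this rule is named. Promoters come from RefSeq (GRCr8); gene positions are those of the deposited tables (rn6), where the counting of starts from 0 or 1 is not stated.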

Additional observations from a re-analysis of the deposited data

Results flagged for a closer look

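In 6 of 47 groups of libraries 1 level lay far from the rest by Dixon's test, which chance gives in about 1 of 20 groups. Pde3a in Sham replicate 5 was at 12.7, where the other 4 were at 6.12 to 7.04. Pde2a in MR 10-week replicate 3 was at 43.3 (others 51.1 to 53.7). Pde4b and Pde5a in MR 20-week replicate 5 were at 7.97 (others 4.20 to 5.01) and 1.58 (0.523 to 0.711). Pde5a in MR 10-week replicate 4 was at 2.11 (0.601 to 1.02), and Pde7a in MR 20-week replicate 1 was at 9.19 (3.27 to 4.63).

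The change from Sham differed between times of MR, by limma tests of the MR groups against each other. From 20 to 40 weeks the log2 differences were 2.06 for Pde3a, 0.59 for Pde3b, 0.62 for Pde4a, 1.09 for Pde4b, 1.75 for Pde4d and 0.39 for Pde8a. From 2 to 40 weeks they were 2.14 for Pde3a, 0.63 for Pde4a, 0.54 for Pde4b, 1.10 for Pde4d and -0.89 for Pde7a.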

How the results depend on the processing

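Against Sham at 40 weeks 7 of 9 phosphodiesterases passed; 3 of 3 tested passed with a mean of at least 10, where fewer genes enter, and 4 to 7 passed with 1 library left out. From 20 to 40 weeks 6 passed, 1 of 2 tested with a mean of at least 10 and 4 to 6 with 1 library left out. From 2 to 40 weeks 5 passed, 3 on the deposited scale, 1 of 2 tested with a mean of at least 10 and 3 to 5 with 1 library left out. From 2 to 10 weeks 0 passed, 1 with DESeq2 and 0 to 1 with 1 library left out; from 10 to 20 weeks 0 passed and 1 with library weights. The cause was not tested. At 2, 10 and 20 weeks against Sham 0 passed under each alternative run. At 40 weeks Pde3a, Pde4b, Pde4d and Pde7a kept their call under each alternative run.

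Small changes that did not pass turned sign. At 2 weeks Pde4a was -0.26 and Pde5a -0.0684 with library weights, and Pde7a was 0.0399 with median-ratio scaling, 0.0763 with edgeR, 0.0931 with DESeq2 and 0.0530 in the fit of 24 libraries. At 10 weeks Pde3b was -0.0258 with median-ratio scaling, -0.0387 with edgeR, -0.0493 with DESeq2, -0.0174 with library weights and -0.0196 in the fit of 24 libraries, and Pde8a was -0.00792 with edgeR and -0.0128 with DESeq2. At 20 weeks Pde3b was 0.00633 with edgeR and 0.0116 with DESeq2, and at 40 weeks Pde5a was -0.0183 with library weights. With 1 library left out the ranges were -0.10 to 0.19 (Pde3a), -0.18 to 0.29 (Pde4a), -0.0599 to 0.23 (Pde5a) and -0.28 to 0.10 (Pde7a) at 2 weeks. They were -0.0272 to 0.0832 (Pde3b), -0.15 to 0.0263 (Pde4a), -0.15 to 0.000187 (Pde4d), -0.19 to 0.0480 (Pde5a) and -0.0243 to 0.19 (Pde8a) at 10 weeks. They were -0.00805 to 0.33 (Pde3a) and -0.16 to 0.0359 (Pde3b) at 20 weeks, and -0.0653 to 0.13 (Pde5a) and -0.0440 to 0.16 (Pde8a) at 40 weeks. Under the alternatives 1810 values were held to be the same. For single genes this meant the same direction and side of the threshold, and for counts of genes a value within 1.5 times. Of the others, 84 lost their call, 51 turned sign and 9 counts moved by more than 1.5 times. No paired analysis was possible because the labels give the groups no shared replicate numbers.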

Other observations

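Pde10a was listed in the 10-week table alone, at 1.02 ± 0.503 in MR and 0.875 ± 0.244 in Sham (SD, n = 5 each), with 7 to 33 reads per library. Each gene of that table had at least 32 reads in its best covered library. Pde10a reached this through an MR library, and no Sham library had more than 22 reads.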
